A study of Mus musculus with 5 samples.

Results

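The genes described here were 8 surface proteins of adult mouse cardiomyocytes: Ncam1, Clstn3, Lrrc4b, Efnb3, Cd44, Cspg4, Nt5e and Prnp. They were 8 of the 12446 genes listed in the deposited table, and they were selected on the measured size of their own rise or fall between the groups of this same study. Their differences between the groups are therefore given as a description, with no test. Bulk RNA was sequenced from cardiomyocytes (CMs) isolated from hearts of male C57BL/6 mice injected into the thoracic cavity at 8 weeks of age, and the labels give an age of 12 to 14 weeks. OSKM-CMs (3 libraries, replicates 1, 2 and 3) had received 4 adeno-associated viral vectors for reprogramming factors. These were AAV-cTnT-Oct4-His6 for Oct4, AAV-cTnT-Sox2-Flag for Sox2, AAV-cTnT-Klf4-HA for Klf4 and AAV-cTnT-Myc-V5 for Myc, of serotype AAV9 per the design text. Control-CMs (2 libraries, replicates 3 and 5) had received AAV-cTnT-BFP, a vector for a blue fluorescent protein, at the summed titer of the factor vectors. Animals of both groups thus carried AAV, with each transgene behind the cardiac troponin T promoter, which is active in cardiomyocytes. Whether the libraries are from different mice is not stated in the labels, so every p-value below measures the spread between these libraries, which may be technical.

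Cells read their surroundings through surface proteins of this kind. Neural cell adhesion molecules and synaptic organizers hold membranes of neighbouring cells together and line up the sending and receiving sides of a synapse. Ephrins are membrane-bound ligands that signal to Eph receptors on the cell they touch, and thereby set borders between cells. Hyaluronan receptors and proteoglycans tie a cell to its matrix, and enzymes anchored in the outer membrane change small molecules such as nucleotides outside the cell. Several of these genes are also used as markers outside the nervous system. Cd44 and Nt5e (the CD73 antigen) mark mesenchymal stromal cells, and Cspg4 (the NG2 antigen) marks pericytes and oligodendrocyte precursors.

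The libraries held 2691796 to 2780751 reads in OSKM-CMs and 3519628 and 3861805 in Control-CMs, counted over the listed genes. The mitochondrial share of reads was 9.76% to 11.1% for OSKM-CMs, against 21.2% and 24.7% for Control-CMs. Levels are therefore given as RPKM (reads scaled by gene length and library size) rescaled with TMM factors, a scaling that discounts a few very abundant genes. Summed over the 4 delivered factors, the level was 119 to 175 TMM-scaled RPKM in OSKM-CMs, against 4.05 and 5.91 in Control-CMs, and Pou5f1 (Oct4) and Sox2 had 0 reads in both control libraries. All 15 cardiomyocyte markers were listed, with a summed level of 21704 to 24511 TMM-scaled RPKM in OSKM-CMs and of 42932 and 47149 in Control-CMs. Of these, 12 fell and 2 rose (limma, adjusted p under 0.05), where 30.2% of all genes tested passed in either direction. Only 3 of 17 neuron markers were among the listed genes, of which Tubb3 and Uchl1 rose and Dbh fell. The summed level of the 3 was 15.4 to 34.3 TMM-scaled RPKM in OSKM-CMs and 8.56 and 6.27 in Control-CMs, and the other neuron markers were not analysed here. Uchl1 made up most of the OSKM-CMs sums, with 27.1, 13.8 and 28.4 TMM-scaled RPKM, against 5.94 and 3.14 in Control-CMs. Tubb3 reached the minimum for a test (mean RPKM of 1) only through OSKM-CMs, and Dbh only through Control-CMs. These are bulk samples, so fewer cells of a type and less RNA per cell cannot be told apart.

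Promoter windows are shown for 3 of the genes because they differ most in what was found in them: Clstn3 and Nt5e, both higher in OSKM-CMs, and Lrrc4b, higher in Control-CMs. Each runs from 250 bases before to 50 bases after an annotated start, 5′ to 3′ on the strand of the gene, from RefSeq on build GRCm38.p6. The deposited values rest on mm9, so the coordinates below belong to the RefSeq windows alone. Entries were found for 6 of the 8 genes, with 7 windows in all, and Ncam1 and Efnb3 had none. Capitals mark matches to a motif. The Clstn3 window lies at chr6:124462695-124462994 on the minus strand, the Nt5e window at chr9:88327359-88327658 on the plus strand and the Lrrc4b window at chr7:44442237-44442536 on the plus strand.
Clstn3: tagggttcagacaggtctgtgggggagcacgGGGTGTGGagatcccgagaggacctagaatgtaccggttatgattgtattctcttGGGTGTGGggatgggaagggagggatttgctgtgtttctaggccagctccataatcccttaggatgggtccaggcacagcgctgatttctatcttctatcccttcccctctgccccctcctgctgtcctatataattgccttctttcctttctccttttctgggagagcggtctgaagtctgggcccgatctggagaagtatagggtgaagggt
Nt5e: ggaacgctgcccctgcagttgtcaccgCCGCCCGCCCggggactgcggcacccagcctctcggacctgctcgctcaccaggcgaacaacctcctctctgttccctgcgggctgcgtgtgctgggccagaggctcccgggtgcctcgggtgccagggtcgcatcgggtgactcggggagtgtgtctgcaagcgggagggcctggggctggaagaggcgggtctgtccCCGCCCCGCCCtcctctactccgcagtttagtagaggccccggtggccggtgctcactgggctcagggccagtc
Lrrc4b: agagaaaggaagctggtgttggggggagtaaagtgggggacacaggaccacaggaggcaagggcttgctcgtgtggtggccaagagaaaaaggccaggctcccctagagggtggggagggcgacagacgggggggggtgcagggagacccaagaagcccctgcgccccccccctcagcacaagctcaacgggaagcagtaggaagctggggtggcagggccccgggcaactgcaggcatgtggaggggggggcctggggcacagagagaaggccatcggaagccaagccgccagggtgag

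Both strands were searched for 5 motifs: CACGTG (the E-box bound by Myc), ATGCAAAT (the octamer bound by Oct4), CATTGTT (a Sox-type sequence), CCACACCC (a Klf-type sequence) and GGGCGG (the GC box). In the Clstn3 window shown the capitals are 2 matches to CCACACCC on the opposite strand, at 219 and 164 bases before the start, and 3.56% of all 32851 RefSeq windows of this length held that motif. The other RefSeq window of Clstn3 lies upstream of the one shown, at chr6:124464735-124465034. That upstream window held no CCACACCC and 1 match to GGGCGG on the opposite strand, at 108 bases before its own start. In the Nt5e window they are 4 matches to GGGCGG on the opposite strand, at 223, 219, 24 and 19 bases before the start. These Nt5e matches overlap pairwise, and 35.7% of all windows held the GC box. None of the 5 motifs was found in the Lrrc4b window. CACGTG, ATGCAAAT and CATTGTT, held by 7.15%, 1.74% and 3.78% of all windows, were found in none of the 7 windows. No matches of different motifs overlapped in the windows shown. The GC content was 71% in the Nt5e window, 66.3% in the Lrrc4b window and 53% in the Clstn3 window shown, beside a median of 52.7% over all windows. A match is a match of letters and no measure of binding.

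Across the 8 genes, Ncam1, Clstn3, Cd44, Cspg4, Nt5e and Prnp lay above both control libraries in all 3 OSKM-CMs libraries, and Lrrc4b and Efnb3 lay below both. Of all 12446 listed genes, 29.6% lay above and 26.5% below in the same way. The test across genes was run on the 10915 whose mean RPKM reached 1. All 8 genes passed that minimum, Ncam1, Clstn3 and Cd44 only through the OSKM-CMs libraries and Lrrc4b only through the Control-CMs libraries. By the size of the log2 fold change, 7 of the 8 stood within the first 90 of the 10915 genes. Prnp stood at place 3960, so a strong change does not describe it.

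**Figure D1:**
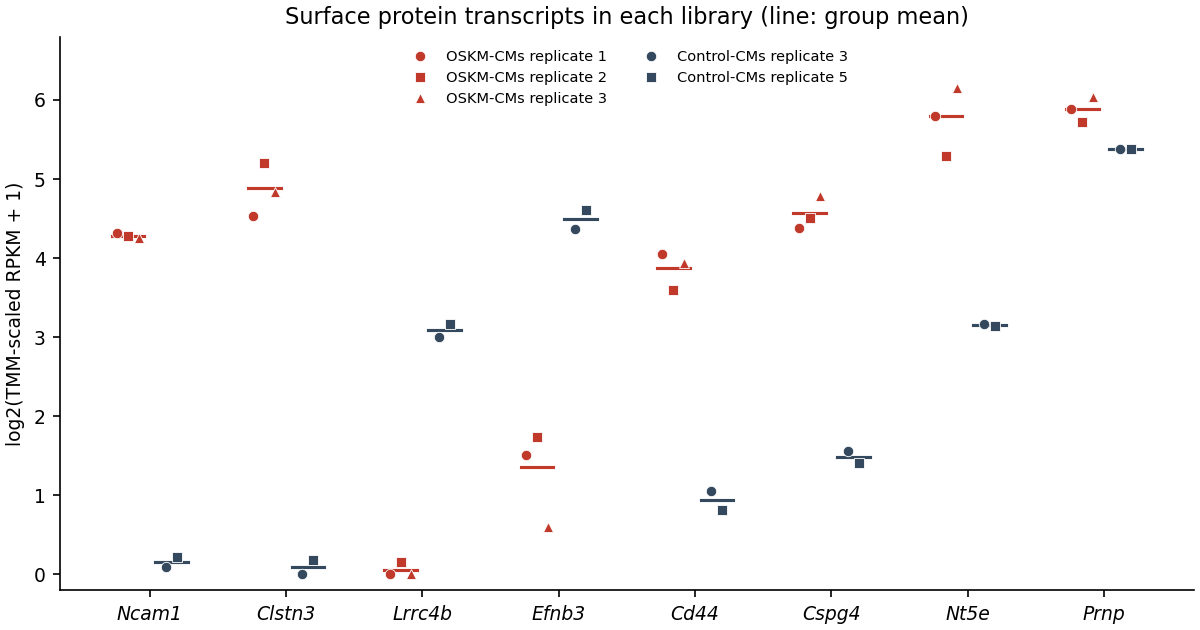
Level of each surface protein gene in each library, as log2(TMM-scaled RPKM + 1). Points are single libraries (OSKM-CMs to the left of Control-CMs for each gene) and short lines are group means. Lrrc4b and Efnb3 sit lower in OSKM-CMs, the other genes sit higher, and the groups lie closest together for Prnp.

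Ncam1 (ENSMUSG00000039542.8) encodes the neural cell adhesion molecule, an immunoglobulin-type protein that binds itself on neighbouring cells. Its reads numbered 590, 581 and 559 in OSKM-CMs, against 2 and 5 in Control-CMs. On the per-length scale this was 19.0, 18.4 and 18.1 TMM-scaled RPKM in OSKM-CMs and 0.0637 and 0.161 in Control-CMs. The groups were far apart, and the OSKM-CMs libraries were nearly level, with a coefficient of variation of 2.51%, the smallest among the 6 genes that were higher. The mean was 18.5 ± 0.465 TMM-scaled RPKM in OSKM-CMs (SD, n = 3) and 0.112 ± 0.0686 in Control-CMs (SD, n = 2). Scaled reads pooled over each group gave a ratio of 165, with a 95% exact interval of 80.0 to 411.5 that covers counting error only, as do all intervals and floors given here. Ncam1 thus stood at the 82.0 percentile of all listed genes by level in OSKM-CMs and at the 1.62 percentile in Control-CMs. An unstranded count could hold reads of Gm11149, annotated antisense to Ncam1 in GENCODE, and the strand setting is not given in the sources used here.

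Among the genes that work with Ncam1, St8sia4, a polysialyltransferase that modifies NCAM, had 1.02, 0.83 and 1.39 TMM-scaled RPKM in OSKM-CMs, against 2.62 and 2.28 in Control-CMs. That fall (log2 fold change -0.74, limma adjusted p = 0.0278) did not pass without OSKM-CMs replicates 1 or 2, without either control library or with scaling by library totals alone, where adjusted p reached 0.113. Fgfr1, a growth factor receptor that NCAM can engage, had 1.37, 1.59 and 2.03 TMM-scaled RPKM in OSKM-CMs and 1.28 and 0.928 in Control-CMs. All 3 OSKM-CMs libraries lay above both controls, but the difference did not pass (log2 fold change 0.34, limma adjusted p = 0.247). Cadm4, another immunoglobulin-type adhesion molecule known from contacts of axons with myelinating glia, fell to 1.51, 1.34 and 0.909 TMM-scaled RPKM in OSKM-CMs, against 6.57 and 6.79 in Control-CMs (log2 fold change -1.78, limma adjusted p = 0.000642).

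Beside Ncam1, 57 neural and other immunoglobulin-type surface proteins and partners were looked up, of which 22 were listed and 17 tested. Among these 17, 2 rose, 5 fell and 10 did not pass. The 17 include St8sia4, which fell, and Fgfr1 and Fyn, which did not pass, none of them an adhesion protein. The median log2 fold change of the 17 was -0.00, beside 0.02 over all genes tested. Jam2, a junctional adhesion molecule, rose to 87.5 ± 15.9 TMM-scaled RPKM in OSKM-CMs, against 30.1 ± 1.20 in Control-CMs (limma adjusted p = 0.000768). Igsf3 was the other gene that rose (log2 fold change 0.60, limma adjusted p = 0.0359), a call lost whichever of the 5 libraries was left out. Cntn5, a contactin of neurons, fell to 0.0721, 0.0711 and 0.362 TMM-scaled RPKM in OSKM-CMs, against 3.35 and 3.03 in Control-CMs (limma adjusted p = 0.000891). Cntn5 reached the minimum only through Control-CMs. It was tested, and kept its call, in 3 of the 5 fits with a library left out. Among all genes tested, 15.9% rose and 14.3% fell.

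Clstn3 (ENSMUSG00000008153.5) encodes calsyntenin-3, a postsynaptic adhesion protein that helps synapses form. It had 337, 552 and 419 reads in OSKM-CMs, against 0 and 2 in Control-CMs. That was 22.1, 35.8 and 27.6 TMM-scaled RPKM in OSKM-CMs and 0 and 0.131 in Control-CMs. Both control libraries lay under the floor of 3 reads, and replicate 2 was the highest OSKM-CMs library. The mean was 28.5 ± 6.86 TMM-scaled RPKM in OSKM-CMs (SD, n = 3) and 0.0656 ± 0.0928 in Control-CMs (SD, n = 2). Because the controls held 2 reads in all, the pooled ratio of 437 had a 95% exact interval of 121 to 3614. Clstn1, the calsyntenin known from axonal transport, had 11.5, 12.2 and 9.77 TMM-scaled RPKM in OSKM-CMs, against 14.0 and 12.2 in Control-CMs, and did not pass (log2 fold change -0.22, limma adjusted p = 0.308). Clstn3 thus stood above Clstn1 in OSKM-CMs and below it in Control-CMs on this per-length scale.

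Lrrc4b (ENSMUSG00000047085.8), also called netrin-G ligand 3, is a leucine-rich repeat protein of the postsynaptic membrane that binds receptor tyrosine phosphatases of the LAR family. It had 0, 1 and 0 reads in OSKM-CMs, against 64 and 72 in Control-CMs. The per-length level was 0, 0.110 and 0 TMM-scaled RPKM in OSKM-CMs and 7.04 and 7.99 in Control-CMs. All 3 OSKM-CMs libraries lay under the floor of 3 reads, which is 1.08 to 1.11 CPM (counts scaled to library size) there. With 1 read in OSKM-CMs, the pooled ratio of Control-CMs over OSKM-CMs was 203, with a 95% exact interval of 35.9 to 8095. Lrrc4b stood at the 0.0161 percentile by level in OSKM-CMs and at the 62.6 percentile in Control-CMs.

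Among the phosphatase receptors of Lrrc4b, Ptprd rose to 5.29, 6.17 and 4.48 TMM-scaled RPKM in OSKM-CMs, against 0.665 and 0.786 in Control-CMs (log2 fold change 1.86, limma adjusted p = 0.000511). Ptprf, the LAR phosphatase itself, rose (log2 fold change 0.79, limma adjusted p = 0.0212), a call lost without OSKM-CMs replicates 1 or 3 or without either control library. Ptprs had 8.80, 9.50 and 7.39 TMM-scaled RPKM in OSKM-CMs, against 9.72 and 12.3 in Control-CMs, and did not pass (adjusted p = 0.176). Ntng2, a netrin-G that binds another protein of the Lrrc4 family, had a log2 fold change of 0.57 and did not pass (adjusted p = 0.0989). Of 52 synaptic organizers beside Clstn3 and Lrrc4b, 20 were listed and 12 tested, of which 3 rose, none fell and 9 did not pass, with a median log2 fold change of -0.19. Besides Ptprd and Ptprf, the gene that rose was Lgi1, a secreted synaptic protein (limma adjusted p = 0.000125). Lgi1 averaged 7.09 ± 0.520 TMM-scaled RPKM in OSKM-CMs against 0.640 ± 0.0335 in Control-CMs. All 3 rises were among 4 genes that reached the minimum only through OSKM-CMs, and none of the 12 did so only through Control-CMs. The count of rises thus depends on that minimum. Over all genes tested, 15.9% rose and 14.3% fell.

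Efnb3 (ENSMUSG00000003934.5) encodes ephrin-B3, a transmembrane ligand of Eph receptors known as a midline barrier for growing axons. It had 18, 23 and 5 reads in OSKM-CMs, against 195 and 230 in Control-CMs. The level was 1.84, 2.32 and 0.513 TMM-scaled RPKM in OSKM-CMs and 19.7 and 23.5 in Control-CMs. The groups did not overlap, but the OSKM-CMs libraries differed, with replicate 3 at 0.329 of their mean. The means were 1.56 ± 0.936 TMM-scaled RPKM in OSKM-CMs (SD, n = 3) and 21.6 ± 2.66 in Control-CMs (SD, n = 2), so that Control-CMs were 13.9-fold higher. In Control-CMs Efnb3 stood second among the 8 genes by level, behind Prnp.

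Epha4, a receptor for ephrin-B3 in axon guidance, fell as well, to 3.76, 5.89 and 4.29 TMM-scaled RPKM in OSKM-CMs, against 24.4 and 27.7 in Control-CMs. The log2 fold change for Epha4 was -2.28, at a limma adjusted p = 0.000249. Efnb1, a related ligand, had 6.69, 6.23 and 6.63 TMM-scaled RPKM in OSKM-CMs and 4.94 and 3.67 in Control-CMs (log2 fold change 0.51, limma adjusted p = 0.0472). The Efnb1 call was lost whichever OSKM-CMs library was left out, without Control-CMs replicate 5 or with no filter on low values. The log2 fold changes of Efnb2, Ephb3 and Ephb4 were -0.01, 0.48 and 0.13 and did not pass (adjusted p = 0.988, 0.0932 and 0.754). Of 21 other ephrins and Eph receptors, 10 were listed and 7 tested, and Efnb1 and Epha4 were the 2 that passed, with a median log2 fold change of 0.13.

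Cd44 (ENSMUSG00000005087.10) encodes the main cell surface receptor for hyaluronan, a long sugar chain of the matrix. It had 329, 236 and 299 reads in OSKM-CMs, against 23 and 16 in Control-CMs. The level was 15.6, 11.1 and 14.3 TMM-scaled RPKM in OSKM-CMs and 1.08 and 0.760 in Control-CMs. Replicate 2 was the lowest OSKM-CMs library and still lay well above both controls. The means were 13.7 ± 2.35 TMM-scaled RPKM in OSKM-CMs (SD, n = 3) and 0.921 ± 0.228 in Control-CMs (SD, n = 2), a 14.8-fold difference. GENCODE places an snRNA gene, Gm23731, on the opposite strand within Cd44.

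Proteins of the ezrin, radixin and moesin family link the tail of Cd44 to the actin skeleton. Msn (moesin) rose to 46.1, 33.3 and 53.9 TMM-scaled RPKM in OSKM-CMs, against 17.4 and 15.8 in Control-CMs (log2 fold change 1.34, limma adjusted p = 0.00277). The log2 fold changes of Ezr, Rdx and Nf2 were 0.18, -0.00 and 0.34 and did not pass (adjusted p = 0.351, 0.991 and 0.0615). With scaling by library totals alone Ezr, Rdx and Nf2 did pass, at log2 fold changes of 0.58, 0.41 and 0.73. Nf2 also passed with a mean RPKM of at least 5 (limma adjusted p = 0.0477) and with limma voom on the recovered reads (adjusted p = 0.0321). Has3, a hyaluronan synthase under the minimum for a test, had 7, 5 and 1 reads in OSKM-CMs and 9 and 16 in Control-CMs. Hyal2, a hyaluronidase anchored to the membrane, had 12.2, 8.48 and 11.6 TMM-scaled RPKM in OSKM-CMs and 9.36 and 12.0 in Control-CMs (adjusted p = 0.995). Of 27 genes of the hyaluronan system and its membrane linkers beside Cd44, 15 were listed and 10 tested. Among those 10, 3 rose, none fell and 7 did not pass, with a median log2 fold change of 0.26. Itih5, which rose, and Ugdh, which did not pass, reached the minimum only through OSKM-CMs, and none did so only through Control-CMs. Over all genes tested, 15.9% rose and 14.3% fell. Tmem2, linked to hyaluronan turnover, rose with 6.79 TMM-scaled RPKM on average in OSKM-CMs against 2.04 in Control-CMs (limma adjusted p = 0.00259).

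Cspg4 (ENSMUSG00000032911.5) encodes the NG2 proteoglycan, a transmembrane core protein that carries chondroitin sulfate. Its reads numbered 489, 543 and 658 in OSKM-CMs, against 49 and 41 in Control-CMs. The level was 19.8, 21.6 and 26.7 TMM-scaled RPKM in OSKM-CMs and 1.96 and 1.66 in Control-CMs. The groups did not overlap, and replicate 3 was the highest OSKM-CMs library. The means were 22.7 ± 3.59 TMM-scaled RPKM in OSKM-CMs (SD, n = 3) and 1.81 ± 0.215 in Control-CMs (SD, n = 2), a 12.6-fold difference. In OSKM-CMs its range overlapped that of Clstn3, its neighbour in the order of levels.

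Cspg4 is used as a pericyte marker, so the other pericyte and smooth muscle markers are given beside it. Of 14 tested, 2 rose (Pdgfrb and Acta2), 1 fell (Abcc9, also a subunit of cardiomyocyte potassium channels) and 11 did not pass. Their summed level was 752 to 822 TMM-scaled RPKM in OSKM-CMs and 751 and 781 in Control-CMs, and none of the 14 was at 0. Des, abundant in cardiomyocytes, and Acta2 carried most of that sum. Without them the other 12 summed to 122, 69.7 and 97.4 TMM-scaled RPKM in OSKM-CMs and to 195 and 176 in Control-CMs. Pdgfrb had 9.0, 9.05 and 7.36 TMM-scaled RPKM in OSKM-CMs, against 5.01 and 3.33 in Control-CMs (limma adjusted p = 0.011). Rgs5, a pericyte marker, had 56.9, 21.6 and 42.5 TMM-scaled RPKM in OSKM-CMs and 66.0 and 52.2 in Control-CMs, and did not pass. Rgs5 was lowest in OSKM-CMs replicate 2, the library in which Cspg4 was in the middle. Of 13 Schwann cell and glial markers 4 were listed, with a summed level of 17.9 to 23.1 TMM-scaled RPKM in OSKM-CMs and of 12.3 and 12.4 in Control-CMs. S100b, also known from cardiomyocytes under stress, rose to 8.56, 8.87 and 11.2 TMM-scaled RPKM in OSKM-CMs against 0 in both control libraries. The part of these cells in the Cspg4 level was not tested.

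Lgals3 (galectin-3), a sugar-binding protein that can bind NG2, rose to 4.04, 2.77 and 3.88 TMM-scaled RPKM in OSKM-CMs, against 1.04 and 0.877 in Control-CMs (limma adjusted p = 0.00382). Mpdz, a multi-PDZ scaffold that binds the tail of NG2, had 6.21, 7.04 and 6.05 TMM-scaled RPKM in OSKM-CMs and 9.42 and 9.43 in Control-CMs (log2 fold change -0.49, limma adjusted p = 0.0326). The Mpdz call was lost without OSKM-CMs replicates 1 or 3, without either control library or with library totals alone. Chst11, a chondroitin sulfotransferase under the minimum for a test, had 4, 3 and 3 reads in OSKM-CMs and 11 and 13 in Control-CMs. Vcan and Sdc4, cores of other proteoglycans, had log2 fold changes of 0.78 and 0.24 and did not pass (adjusted p = 0.0681 and 0.404), though Vcan passed without OSKM-CMs replicate 2. Of 37 proteoglycan cores, chondroitin sulfate enzymes and a few binding proteins beside Cspg4, 26 were listed and 20 tested. Of the 20, 3 rose, 3 fell and 14 did not pass, with a median log2 fold change of 0.19. Lgals3 was among these rises and Mpdz among these falls, and neither is a core or such an enzyme. Gpc1, a glypican, averaged 108.4 TMM-scaled RPKM in OSKM-CMs and 167 in Control-CMs (log2 fold change -0.63, limma adjusted p = 0.0130). The Gpc1 call was lost without OSKM-CMs replicate 1, without Control-CMs replicate 5 or with library totals alone. Dse, a dermatan sulfate epimerase (log2 fold change 0.73, limma adjusted p = 0.0248), lost its call without either control library, the only 2 fits with a library left out in which it reached the minimum. Gpc4, another glypican (log2 fold change -0.79, limma adjusted p = 0.0291), lost its call whichever OSKM-CMs library was left out, without Control-CMs replicate 3 or with library totals alone.

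Nt5e (ENSMUSG00000032420.6) encodes ecto-5′-nucleotidase, a GPI-anchored enzyme that makes adenosine from AMP outside the cell. It had 602, 425 and 770 reads in OSKM-CMs, against 89 and 86 in Control-CMs. The level was 54.8, 38.1 and 70.3 TMM-scaled RPKM in OSKM-CMs and 8.01 and 7.82 in Control-CMs. Replicate 2 was the lowest and replicate 3 the highest OSKM-CMs library, and all 3 lay above both controls. The means were 54.4 ± 16.1 TMM-scaled RPKM in OSKM-CMs (SD, n = 3) and 7.91 ± 0.139 in Control-CMs (SD, n = 2), a 6.88-fold difference. Nt5e was already present in Control-CMs, at the 64.2 percentile by level, and stood at the 93.5 percentile in OSKM-CMs.

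Other steps of adenosine handling moved in both directions. Adora1, the adenosine receptor typical of cardiomyocytes, rose to 4.05, 5.43 and 6.66 TMM-scaled RPKM in OSKM-CMs, against 2.11 and 1.12 in Control-CMs (log2 fold change 1.29, limma adjusted p = 0.0069). Slc29a1, a transporter that takes adenosine up, had 7.65, 7.31 and 5.64 TMM-scaled RPKM in OSKM-CMs and 13.0 and 13.1 in Control-CMs (log2 fold change -0.84, limma adjusted p = 0.0068). Adk, the kinase that turns adenosine back into AMP, had 79.8, 66.2 and 84.5 TMM-scaled RPKM in OSKM-CMs and 120 and 131 in Control-CMs (log2 fold change -0.71, limma adjusted p = 0.00725). With library totals alone neither of these falls passed, with adjusted p = 0.0516 for Slc29a1 and 0.114 for Adk. Entpd1, the ectonucleotidase that supplies AMP, had 5.61, 1.15 and 2.52 TMM-scaled RPKM in OSKM-CMs and 2.08 and 1.11 in Control-CMs and did not pass (adjusted p = 0.431). Alpl, a phosphatase that can also make adenosine, did not pass (log2 fold change 0.22, adjusted p = 0.284). Enpp1, Adora2a and Ada, an ectoenzyme, an adenosine receptor and adenosine deaminase, lay under the minimum for a test, with overlapping groups.

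Of 35 ectonucleotidases and adenosine-handling genes beside Nt5e, 25 were listed and 20 tested, of which 2 rose, 5 fell and 13 did not pass, with a median log2 fold change of -0.17. Enpp3, an ectoenzyme that cleaves extracellular nucleotides, was the other gene that rose, to 6.71 ± 1.92 TMM-scaled RPKM in OSKM-CMs against 0.926 ± 0.00623 in Control-CMs (limma adjusted p = 0.00101). Entpd5, a diphosphatase of the endoplasmic reticulum, fell to 13.6 ± 1.66 TMM-scaled RPKM in OSKM-CMs, against 50.2 ± 3.68 in Control-CMs (limma adjusted p = 0.000203). Slc28a2, a nucleoside transporter, fell to 1.88 TMM-scaled RPKM on average in OSKM-CMs, against 6.19 in Control-CMs (limma adjusted p = 0.00327).

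Prnp (ENSMUSG00000079037.3) encodes the cellular prion protein, a GPI-anchored protein made at high levels in neurons and present in many other cells. It had 420, 377 and 462 reads in OSKM-CMs, against 295 and 293 in Control-CMs. The level was 58.4, 51.7 and 64.5 TMM-scaled RPKM in OSKM-CMs and 40.6 and 40.7 in Control-CMs. The groups did not overlap, but the difference was 1.43-fold, with means of 58.2 ± 6.39 TMM-scaled RPKM in OSKM-CMs (SD, n = 3) and 40.6 ± 0.0777 in Control-CMs (SD, n = 2). On the RPKM as deposited, without the TMM factors, the fold was 1.91. Prnp had the highest level of the 8 genes in both groups, at the 93.9 percentile in OSKM-CMs and the 91.1 percentile in Control-CMs. GENCODE lists a transcript named Prn on the same strand that overlaps Prnp, so reads may be shared between them.

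Prnd, the neighbouring gene for the prion-like protein doppel, had 0.847, 1.30 and 1.61 TMM-scaled RPKM in OSKM-CMs and 1.77 and 1.03 in Control-CMs and did not pass (adjusted p = 0.806). App, the amyloid precursor protein, did not pass (log2 fold change -0.07, adjusted p = 0.859). Its relative Aplp2 had 49.9, 44.3 and 42.5 TMM-scaled RPKM in OSKM-CMs and 74.1 and 72.8 in Control-CMs (log2 fold change -0.68, limma adjusted p = 0.00482), a fall lost when only library totals were scaled on (adjusted p = 0.122). Of 43 other GPI-anchored surface proteins, 24 were listed and 19 tested, of which 3 rose, 6 fell and 10 did not pass, with a median log2 fold change of -0.45. Cd109, which binds transforming growth factor beta, rose to 16.1 ± 3.37 TMM-scaled RPKM in OSKM-CMs, against 0.211 ± 0.0984 in Control-CMs (log2 fold change 3.81, limma adjusted p = 4.45e-05). Cd24a, a small sialylated glycoprotein, rose to 5.0 ± 1.21 TMM-scaled RPKM in OSKM-CMs against 0.803 ± 0.132 in Control-CMs (limma adjusted p = 0.00132). Both Cd109 and Cd24a reached the minimum for the test only through OSKM-CMs, the group in which they were high. Art4, of the ADP-ribosyltransferase family, averaged 1.33 TMM-scaled RPKM in OSKM-CMs and 7.90 in Control-CMs, a fall at a limma adjusted p = 0.000556. Gas1, a co-receptor for hedgehog, averaged 1.35 TMM-scaled RPKM in OSKM-CMs and 4.58 in Control-CMs (limma adjusted p = 0.00245).

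Cd44, Ncam1, Prnp, ephrins and calsyntenins can be cut from the membrane by proteases, so the sheddases and gamma-secretase were read beside them. Of 27 genes in that family, which also holds App and Aplp2, 21 were listed and 19 tested. Of the 19, 2 rose, 3 fell (Aplp2 among them) and 14 did not pass, with a median log2 fold change of -0.07. Adam9, a membrane-bound metalloprotease, rose to 40.8 ± 7.14 TMM-scaled RPKM in OSKM-CMs, against 17.5 ± 0.518 in Control-CMs (limma adjusted p = 0.00193). Rhbdf2, which helps the sheddase ADAM17 mature, had a log2 fold change of 0.59 at a limma adjusted p = 0.0364, and lost that call whichever of the 5 libraries was left out. Mmp15, a membrane-type matrix metalloprotease, fell to 9.94 TMM-scaled RPKM on average in OSKM-CMs, against 20.4 in Control-CMs (limma adjusted p = 0.00558).

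Over the 8 families, 163 of 299 genes were listed and 124 tested, of which 19 rose (15.3%), 23 fell (18.5%) and 82 did not pass. Their median log2 fold change was -0.01, beside 0.02 over all genes tested. With scaling by library totals alone, 41 rose and 13 fell and the family median was 0.33, while the median over all genes was 0.36. Rises made up 45.2% of the family calls with TMM factors and 75.9% with library totals alone. Of the 163 listed genes, 19 reached the minimum only through OSKM-CMs and 1, Cntn5, only through Control-CMs. Those 19 include the rises of Ptprd, Ptprf, Lgi1, Lgals3, Dse, Enpp3, Cd109 and Cd24a given above.

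**Figure D2:**
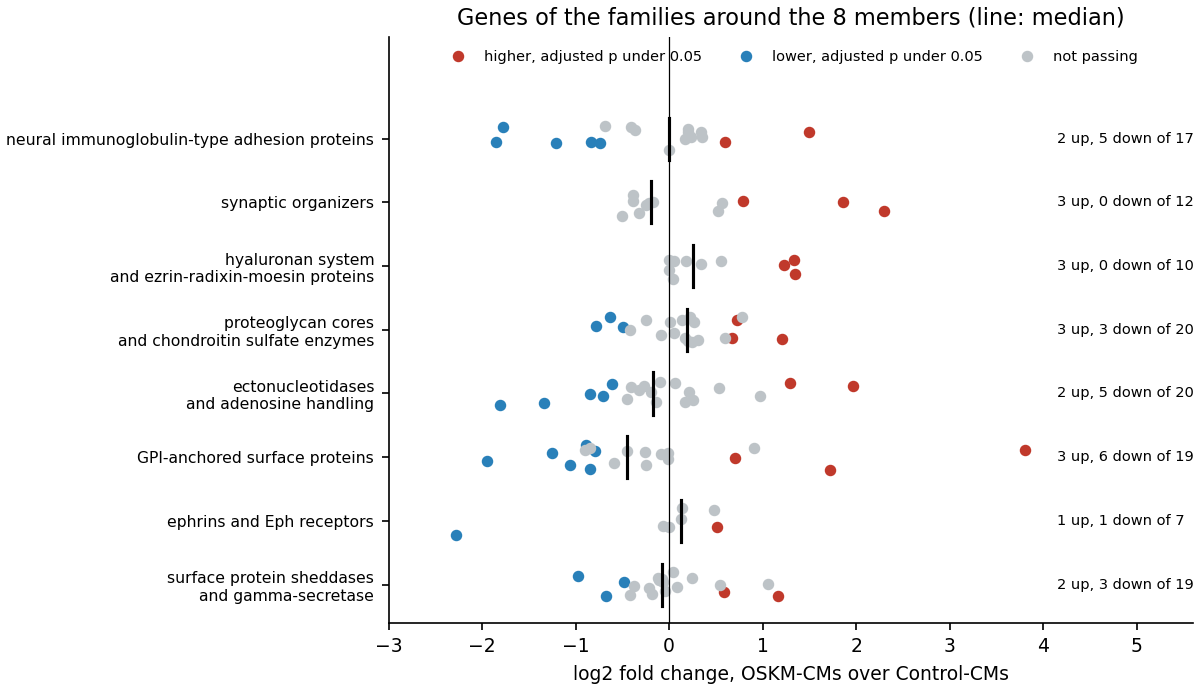
Log2 fold change, OSKM-CMs over Control-CMs on TMM-scaled RPKM + 1, of the tested genes in each of the 8 families around the surface protein genes, which are left out. Each point is a gene, colour gives the limma call, black lines are medians and the counts stand at the right, with every family holding genes that did not pass.

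By level in OSKM-CMs the order was Prnp, Nt5e, Clstn3, Cspg4, Ncam1, Cd44, Efnb3 and Lrrc4b. The ranges of Prnp and Nt5e overlapped there, as did those of Clstn3 and Cspg4. In Control-CMs the order was Prnp, Efnb3, Nt5e, Lrrc4b, Cspg4, Cd44, Ncam1 and Clstn3. The ranges of Nt5e and Lrrc4b overlapped in Control-CMs, as did those of Ncam1 and Clstn3. The fold depends on the number added before the log for the genes near 0. In the authors' deposited table the log2 fold change was 7.35 for Ncam1, 8.80 for Clstn3 and -7.47 for Lrrc4b. With 1 added to each value it was 4.13 for Ncam1, 4.77 for Clstn3 and -3.04 for Lrrc4b. For Prnp the log2 fold change was 0.51 in the authors' deposited table and 0.50 with 1 added.

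**Figure D3:**
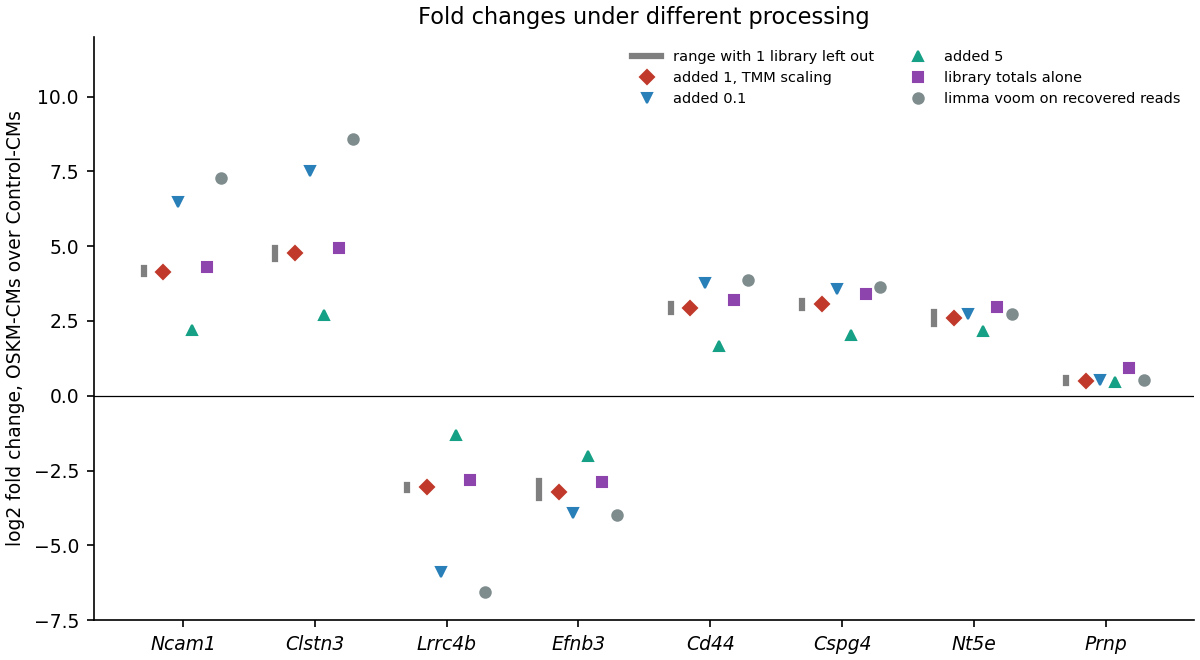
Log2 fold change, OSKM-CMs over Control-CMs, of each surface protein gene under different added values, scalings and a fit on the recovered reads. Grey bars give the range when 1 library is left out. Ncam1, Clstn3 and Lrrc4b spread most between settings, Nt5e and Prnp least, and no gene changes sign.

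Within the OSKM-CMs group the genes put the libraries in different orders. Cd44, Nt5e and Prnp were lowest in replicate 2, at 0.810, 0.701 and 0.889 of their OSKM-CMs means. The summed fibroblast, endothelial and leukocyte markers were lowest in that library too, at 0.594, 0.627 and 0.360 of their means. So were the 3 listed neuron markers (0.583) and the Schwann cell and glial markers (0.883), while the pericyte and smooth muscle markers were at 1.02 there and lowest in replicate 1. Des and Acta2 carried most of that last sum. Without them the other 12 were lowest in replicate 2 as well, at 69.7 TMM-scaled RPKM, against 122 in replicate 1 and 97.4 in replicate 3. Clstn3 and Efnb3 were highest in replicate 2, at 1.25 and 1.49 of their means, and Ncam1 stayed within 0.976 to 1.03. Between the groups, the summed level of the 14 fibroblast markers was 134 to 278 TMM-scaled RPKM in OSKM-CMs and 81.4 and 168 in Control-CMs, with 5 markers higher (Col1a1, Col1a2, Col3a1, Col5a1 and Postn), 1 lower and 8 not passing. For 15 endothelial markers it was 117 to 251 TMM-scaled RPKM in OSKM-CMs and 353 and 381 in Control-CMs, with none higher, 3 lower and 12 not passing. For 10 leukocyte markers it was 10.2 to 48.0 TMM-scaled RPKM in OSKM-CMs and 15.4 and 60.7 in Control-CMs, and none of the 7 tested passed. Among these markers, Ptprc was at 0 in OSKM-CMs replicate 2 and Mfap5 in Control-CMs replicate 5. The part of these cells in the levels of Cd44, Nt5e and Prnp was not tested.

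**Figure D4:**
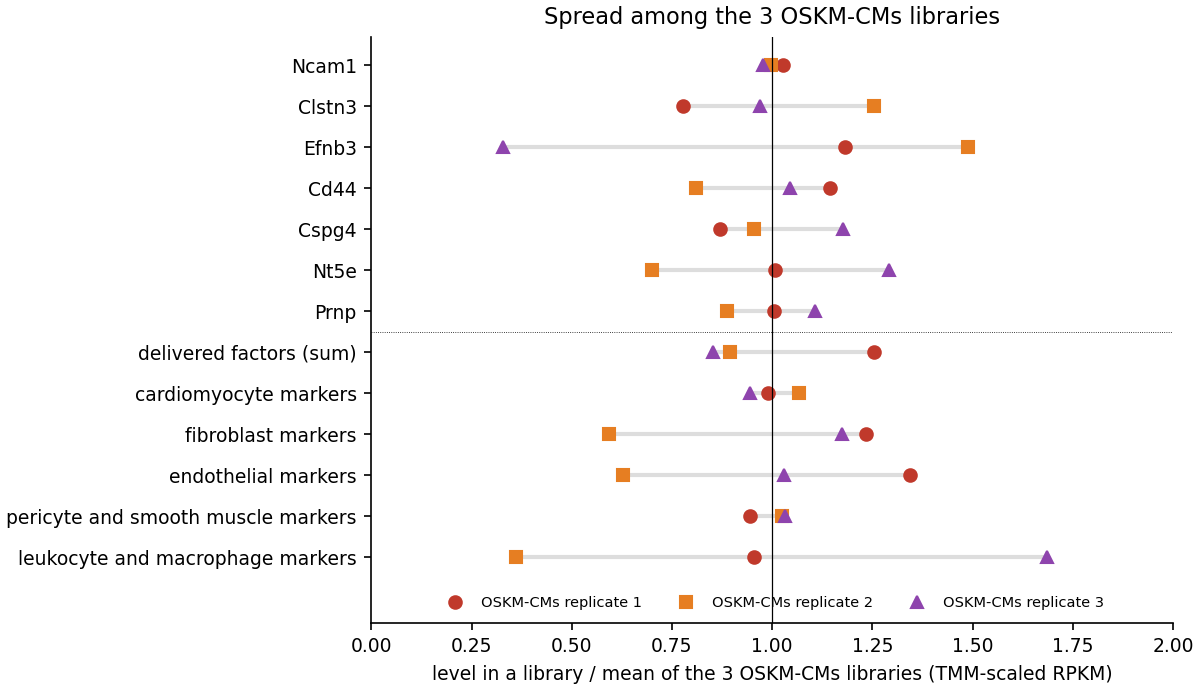
Level in each OSKM-CMs library divided by the mean of the 3 libraries (TMM-scaled RPKM), for 7 of the surface protein genes and for summed marker lists. Lrrc4b, with 1 read in all, is left out. The pericyte and smooth muscle sum includes Des and Acta2, without which replicate 2 is the lowest there too. Replicate 2 is lowest for Cd44, Nt5e and Prnp and, among the lists drawn, for the fibroblast, endothelial and leukocyte markers, and highest for Clstn3 and Efnb3.

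The genes whose profiles lay nearest to each surface protein gene were found by the Euclidean distance of centred log2(TMM-scaled RPKM + 1) values over the 5 libraries. Nearest to Ncam1 were Tspan17 and snoZ40 (distances 0.410 and 0.444), and nearest to Clstn3 were SNORA25 and Upp1 (0.242 and 0.477). For Cd44 they were Gm13157 and Arhgdig (0.223 and 0.235), for Cspg4 Rtn4 and Mal (0.166 and 0.170), and for Nt5e Tlr2 and Tspo (0.226 and 0.303). Lrrc4b lay nearest to A930018M24Rik and Pcp4l1 (0.440 and 0.499), and Efnb3 to Kcnip2 and Rpl3l (0.390 and 0.50). For Prnp they were Bub3 and Vps41 (0.0376 and 0.0469). These distances scale with the size of the change, since the median distance over all genes was 0.770 for Prnp and 2.91 to 5.23 for the other 7. Upp1, a uridine phosphorylase, averaged 93.4 ± 14.7 TMM-scaled RPKM in OSKM-CMs and 1.74 ± 0.597 in Control-CMs. Kcnip2, a subunit of the cardiac transient outward potassium channel, averaged 4.88 ± 2.63 TMM-scaled RPKM in OSKM-CMs and 52.4 ± 6.15 in Control-CMs.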

How the data were processed

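Total RNA of isolated cardiomyocytes was sequenced. CASAVA 1.8.2, FastQC, Trimmomatic, STAR 2.5.3, HTSeq and the genome build mm9 are named, per the submitters' processing notes; annotation, strand setting and the handling of shared reads are not given in the sources used here. The authors deposited 1 table of 12446 genes with an RPKM value per library, a unit read from the values because the header does not state it. Beside these the authors deposited a mean log2 abundance, a log2 fold change, a likelihood-ratio score, a p-value and an FDR per gene. No per-sample column was left without a sample.

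Whole reads were recovered from the steps of the RPKM values, within 0.0001 reads for 100% of genes. No 2 libraries of a group agreed within sampling noise. RPKM were divided by TMM factors computed from those reads (30% of log ratios and 5% of abundances trimmed). The 10915 genes whose mean RPKM reached 1 were tested with limma 3.58.1 in R 4.3.3, with a trend and robust variances, on log2(scaled RPKM + 1), which understates the change of low genes. Tests were 2-sided, with 3 residual degrees of freedom, Benjamini-Hochberg adjustment over all 10915 genes and a threshold of 0.05. The scripts were tested on simulated data. Percentiles of level were taken over the 12446 listed genes. Intervals of pooled read ratios are exact 95% intervals.

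The surface protein genes and the family and marker lists were chosen with earlier results of these data known. Family lists are named for their main class, and some also hold partners outside it. Genes named in the text are all 8, their listed partners, the 2 largest rises and falls per family among genes that passed with no overlap between groups, and the 2 nearest profiles per gene. Markers and overlapping genes named beside a result were chosen after their values were seen. The values of 1 listed marker are not reported here. Alternatives were other added values, other filters, other scalings, limma voom on the recovered reads and each library left out.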

Additional observations from a re-analysis of the deposited data

How the results depend on the processing

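No surface protein gene changed the sign of its log2 fold change in any setting tried, and 1 of them, Lrrc4b, was not kept at a mean RPKM of at least 5. Leaving out each library in turn gave log2 fold changes of 4.08 to 4.27 for Ncam1, 4.56 to 4.94 for Clstn3, 2.81 to 3.07 for Cd44, 2.94 to 3.16 for Cspg4, 2.39 to 2.81 for Nt5e, 0.43 to 0.58 for Prnp, -3.16 to -2.97 for Lrrc4b and -3.43 to -2.86 for Efnb3. With other settings Prnp ranged from 0.46 to 0.91, and Clstn3 from 2.71 to 8.58.

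Across all genes, 1740 rose and 1558 fell. Scaling by library totals alone gave 3985 and 650, and moved the share of rises among calls to 86.0%, beside 52.8% with TMM factors. With 1 library left out, 1158 to 1562 rose and 953 to 1504 fell. Over the 8 families, 19 rose and 23 fell. Library totals alone gave 41 and 13, a mean RPKM of at least 5 gave 8 and 16 among fewer genes tested, and limma voom gave 21 and 30. With 1 library left out, 13 to 19 family genes rose and 16 to 23 fell. The all-gene median log2 fold change was 0.36 with library totals alone and 0.02 with TMM factors, and 6 named genes changed sign between these scalings. Of these Rdx passed with library totals alone (log2 fold change 0.41, limma adjusted p = 0.0393), and App, Clstn1, Efnb2, Prnd and Ptprs did not pass under either scaling. Alpl, Ephb3, Ezr, Nf2, Ntng2, Sdc4 and Vcan, which did not pass, passed with library totals alone, Nf2 also at a mean RPKM of at least 5 and with limma voom, and Vcan also without OSKM-CMs replicate 2. Of 48 partner and family genes named with a test, 31 passed and 19 of them passed in every setting that tested them; 9 lost the call when a library was left out and 7 did with library totals alone. Calls of cell type markers were not compared between settings. The cause was not tested.

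No paired analysis was possible because replicate 3 was the 1 number that OSKM-CMs and Control-CMs had in common. Depth limits Ncam1, Clstn3 and Lrrc4b, which had at most 5 reads in each library of their lower group.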
